A study of Mus musculus with 221 samples.

Results

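The genes described here are 10 RNA-binding proteins that act on pre-mRNA splicing, mRNA stability and translation in the developing nervous system: Ptbp1, Ptbp2, Elavl1, Elavl2, Elavl3, Elavl4, Nova1, Nova2, Msi1 and Msi2. They were chosen by name, as rows of the deposited TPM table, with earlier results on these cells known. Of the 10 names, 9 have a row among the 23244 features of the table, and Msi2 is not analysed here. The rule itself named the comparison of Ptbp1 with Ptbp2 and the passage of the Elavl and Msi genes from progenitor to neuron, so those values are given as a description, without a test.

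All 221 cells were single-cell transcriptomes of microdissected medial neocortex from C57BL/6J mouse embryos at E18.5, with no treatment or transgene. They came from 2 pools of 8 neocortices each, 122 cells in pool 1 and 99 in pool 2. The pool is the replicate in every comparison of classes (n = 2). Cells were isolated on the Fluidigm C1, a microfluidic capture system, and full-length cDNA was made with SMARTer chemistry. The labels give the sex of every sample as female, whereas 99 cells had a Y-linked transcript. The embryos of a pool were mixed before capture, so no cell can be traced to its animal.

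The polypyrimidine tract-binding proteins Ptbp1 and Ptbp2 are paralogous splicing repressors. Ptbp1 is known from neural progenitors and many non-neuronal cells, where it promotes skipping of an exon of the Ptbp2 pre-mRNA and so sends that mRNA to nonsense-mediated decay. Ptbp2 takes its place in newly formed neurons. Elavl1, also called HuR, is found in most cell types, while Elavl2, Elavl3 and Elavl4 (HuB, HuC and HuD, together nElavl) are neuronal proteins that bind AU-rich and U-rich RNA and stabilise or splice their targets. Nova1 and Nova2 bind YCAY repeats in neuronal pre-mRNAs. The Musashi proteins Msi1 and Msi2 are translational regulators best known from neural stem cells.

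The exon by which Ptbp1 is known to act on Ptbp2 is printed below because the deposited values cannot show its use. It is exon 10 of transcript Ptbp2-201, 34 bases at chr3:119724612-119724645 on the minus strand of GRCm38 (the assembly also called mm10), in the GENCODE annotation. Capitals mark the exon, and the 15 bases of neighbouring exon on each side are in lower case:
Ptbp2 exon 10: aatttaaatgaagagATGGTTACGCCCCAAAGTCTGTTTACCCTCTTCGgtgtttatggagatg
Its length is not a multiple of 3, with a remainder of 1. Of the 13 annotated Ptbp2 transcripts, 3 hold this exon and 3 span its position without it, and 2 of those 3 are annotated as targets of nonsense-mediated decay. A gene-level TPM adds transcripts with and without the exon, so every Ptbp2 value below is the sum of both forms.

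The upstream windows of Elavl3 and Elavl4 are printed because the mean levels of these paralogs took opposite orders between newborn neuron-like and excitatory neuron-like cells. That order is a description, given further on with its limits. Each is the 250 bases before the RefSeq start site on the minus strand of GRCm38.p6, chr9:22052024-22052273 for Elavl3 and chr4:110351912-110352161 for Elavl4. Elavl4 has 4 start sites in the RefSeq table, of which 1 is shown. Capitals mark every match, on either strand, to 4 short motifs: CAGCTG and CAGATG, the E-boxes of proneural factors, GGGCGG, the GC box, and ATTGG, the CCAAT box read from the other strand.
Elavl3: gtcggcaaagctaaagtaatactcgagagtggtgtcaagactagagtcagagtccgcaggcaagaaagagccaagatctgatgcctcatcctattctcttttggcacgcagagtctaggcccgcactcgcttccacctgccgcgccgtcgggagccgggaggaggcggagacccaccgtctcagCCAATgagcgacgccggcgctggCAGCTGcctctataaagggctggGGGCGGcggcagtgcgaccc
Elavl4: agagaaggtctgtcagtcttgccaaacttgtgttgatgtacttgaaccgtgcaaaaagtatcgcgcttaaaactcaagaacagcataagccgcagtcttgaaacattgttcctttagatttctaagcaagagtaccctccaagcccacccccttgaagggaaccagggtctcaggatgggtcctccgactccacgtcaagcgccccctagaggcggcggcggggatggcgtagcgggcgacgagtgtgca
The Elavl3 window holds 1 match each to CAGCTG, the GC box and the CCAAT box, and the Elavl4 window holds none of the 4 motifs. Among 27025 promoter windows of the same length, CAGCTG occurs in 12.8%, the other E-box in 14.5%, the GC box in 32.9% and the CCAAT box in 34.5%. Over the 9 member genes with a window (Msi1 has no entry), the first E-box was found in 2, the other E-box in 1, the GC box in 4 and the CCAAT box in 4. A match describes letters in the window and says nothing about binding.

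Values are TPM, which are corrected for transcript length, so that levels of different genes can be compared within a cell. No value in the table is 0. In each cell all features without signal share the lowest value, called the floor here, which lay between 1.33 and 2.998 TPM (median 1.83). A gene counts as above the floor when its value exceeds that of its cell. A cell had 2146 to 6727 genes above the floor. Read numbers are not among the deposited values, so the depth of each cell is unknown, and the 95% exact binomial (Clopper-Pearson) intervals given for shares of cells cover the sampling of cells only. Where no cell was above the floor, the limit given for the share is 3 cells out of the number examined, and is not a Clopper-Pearson bound.

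Cells were grouped by 63 marker genes, none of them a member, into 10 clusters, and a cluster was named only from marker lists. The radial glia-like class had 16 cells, 8 in each pool. Radial glia are stem cells lining the cerebral ventricle, and Hes5, Slc1a3 and Fabp7 were above the floor in 16 of 16 of these cells. The class was not pure: oligodendrocyte precursor marker Olig1 was above the floor in 10 of the 16, and Neurod6, a marker of excitatory neurons, reached 100 TPM or more in 7, of which 5 were in pool 1. The second class, called mixed progenitor, had 16 cells, 8 in each pool, in which markers of radial glia and of intermediate progenitors were both frequent. Eomes, the defining factor of intermediate progenitors, was above the floor in 10 of these 16 and in 2 of the 16 radial glia-like cells, but median Neurod6 was also 1086 TPM. The newborn neuron-like class had 40 cells (26 and 14 in the pools), the excitatory neuron-like class 96 (54 and 42) and the interneuron-like class 27 (16 and 11), in which Dlx2 was above the floor in 24. The remaining 26 cells stayed unnamed. All 5 endothelial markers and 5 meningeal markers stayed at the floor in both progenitor classes, but other lists did not. In at least 1 radial glia-like cell, 2 of 4 red blood cell markers, 3 of 8 microglial, 2 of 5 Cajal-Retzius, 1 of 4 mural and 7 of 16 interneuron markers were above the floor. The summed red blood cell level there had a median of 6.75 TPM and a maximum of 9799 TPM. In mixed progenitors the counts were 1, 0, 0, 2 and 10, and the part of these transcripts in the members' values was not tested. No doublet caller was run. Both Xist and a Y-linked transcript were above the floor in 19 cells, and leaving these out is among the alternatives.

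Ptbp1, the progenitor paralog, was above the floor in 83 of the 221 cells. Its share was 10 of 16 in radial glia-like cells (62.5%, interval 35.4 to 84.8%), 12 of 16 in mixed progenitors, 20 of 40 in newborn neuron-like cells, 26 of 96 in excitatory neuron-like cells (27.1%, interval 18.5 to 37.1%) and 5 of 27 in interneuron-like cells (18.5%, interval 6.30 to 38.1%). The share was thus highest in both progenitor classes and lowest in the excitatory neuron-like and interneuron-like classes.

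In radial glia-like cells Ptbp1 ranged from 1.40 to 278 TPM with a median of 8.99 TPM, and the pool means were 46.6 and 41.1 TPM. Mixed progenitors ran higher, with a median of 62.0 TPM and pool means of 66.4 and 92.4 TPM. In newborn neuron-like cells the median was 2.67 TPM and the highest cell of all, at 405 TPM, belonged to this class. The excitatory neuron-like cells had a median at the level of the floor, 1.95 TPM, a highest cell of 143 TPM and pool means of 18.3 and 7.99 TPM. Every class therefore held some cells with more than 100 TPM, and the classes differed in how many there were. On the log2(TPM + 1) scale, the difference between excitatory neuron-like and radial glia-like cells was -1.46 ± 0.62 (SE), -1.12 in pool 1 and -1.80 in pool 2. The difference between newborn neuron-like and radial glia-like cells was -0.10 ± 0.62, with opposite signs in the pools (0.30 and -0.50). The order of mean log2 level was mixed progenitor, radial glia-like, newborn neuron-like, interneuron-like and excitatory neuron-like, in which radial glia-like and newborn neuron-like cells overlapped over the pools, as did interneuron-like and excitatory neuron-like cells.

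Gene detection moved with these values. The median cell had 4692 genes with signal in the radial glia-like class and 4039 in the excitatory neuron-like class, and within the radial glia-like class the 10 cells with Ptbp1 had a median of 5258 against 3471 in the 6 without it. Among the excitatory neuron-like cells the same medians were 4086 and 4001. The part of gene detection in the result was not tested. Cell names also carry a letter, A or B, whose meaning is not given in the sources used here, and 13 of the 16 radial glia-like cells had the letter A. Within letter A, Ptbp1 exceeded the floor of the cell in 9 of 13 cells of the radial glia-like class and 18 of 56 of the excitatory neuron-like class. Ptbp1 also shares exonic positions with 3 annotated genes on the opposite strand, and whether the counting used strand is not given in the sources used here.

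Ptbp2, the neuronal paralog, was the more widespread of the pair, above the floor in 200 of 221 cells, and its levels did not separate progenitors from neurons. Signal was present in 14 of 16 radial glia-like cells, all 16 mixed progenitors, 36 of 40 newborn neuron-like, 89 of 96 excitatory neuron-like and 20 of 27 interneuron-like cells. Median levels were 104 TPM in radial glia-like cells, 227 TPM in mixed progenitors, 184 TPM in newborn neuron-like cells, 153 TPM in excitatory neuron-like cells and 131 TPM in interneuron-like cells. Pool means in radial glia-like cells were 95.7 and 141 TPM, below the 189 and 156 TPM of the excitatory neuron-like cells. Between these classes the log2 difference was 0.65 ± 0.53 (SE), nearly all of it in pool 1 (1.30, against 0.0016 in pool 2). Its sign turned with 12 clusters (-0.08) and with each cell assigned to the class holding the largest share of its markers (-0.195). Between mixed progenitors and radial glia-like cells it was 1.69 ± 0.53, with 2.30 in pool 1 and 1.08 in pool 2. No difference of mixed progenitors was followed over the alternatives. With 12 clusters that class held 7 cells, 2 of them in pool 1, and classes by the largest share of markers did not include it.

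Both paralogs were above the floor together in 76 of the 221 cells, Ptbp2 alone in 124, Ptbp1 alone in 7 and neither in 14. The share of cells with both was 9 of 16 radial glia-like cells (56.2%), 12 of 16 mixed progenitors (75.0%), 16 of 40 newborn neuron-like cells (40.0%), 25 of 96 excitatory neuron-like cells (26.04%) and 5 of 27 interneuron-like cells (18.5%). In both progenitor classes cells with both mRNAs outnumbered those with one alone. With 10 TPM as the limit in place of the floor this order turned in radial glia-like cells, where 6 cells had both and 8 had one alone. Ptbp1 was the higher of the pair in 26 cells of 221, namely in 3 radial glia-like, 5 mixed progenitor, 6 newborn neuron-like, 7 excitatory neuron-like, 1 interneuron-like and 4 unnamed cells. Over all 221 cells the Pearson r of the paralogs' log2 levels was 0.08 (0.07 in pool 1 and 0.10 in pool 2), over points that share libraries and gene detection.

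**Figure D1:**
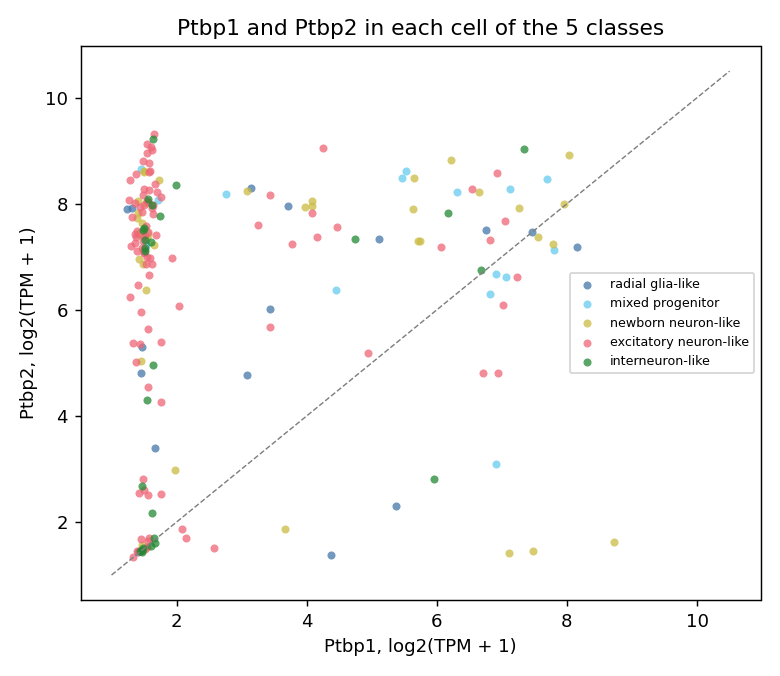
Ptbp1 (horizontal) against Ptbp2 (vertical) as log2(TPM + 1), 1 point per cell of the 5 classes, jittered slightly, with the dashed line at equal level. Most cells lie above the line, at the left edge where Ptbp1 is at the floor, and 76 of the 221 cells had both genes above the floor.

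Elavl1, the widely expressed family member, was above the floor in 177 of 221 cells and in 14 of 16 radial glia-like, 16 of 16 mixed progenitor, 32 of 40 newborn neuron-like, 75 of 96 excitatory neuron-like and 19 of 27 interneuron-like cells. Its class medians ran from 34.5 TPM in excitatory neuron-like cells to 69.7 TPM in radial glia-like cells. Pool means were 76.7 and 84.5 TPM in radial glia-like cells, and 59.9 and 47.4 TPM in excitatory neuron-like cells, without overlap. The log2 difference was -0.97 ± 0.57 (SE), with the same sign in both pools. Here and below, overlap is judged on 2 pool means per class. The share of all genes without overlap was not counted, so a lack of overlap is given as a description only. Elavl1 shares exonic positions with Ccl25 on the opposite strand.

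The 3 neuronal Elavl genes had their lowest mean log2 level in radial glia-like cells, each with a different profile among the other classes. For Elavl4 this order against excitatory neuron-like cells did not hold within letter A of pool 2, as given below. Elavl3 exceeded the floor of the cell in 7 of 16 radial glia-like cells, 15 of 16 mixed progenitors, 32 of 40 newborn neuron-like, 88 of 96 excitatory neuron-like and 24 of 27 interneuron-like cells. Elavl3 ran from 1.37 to 81.3 TPM in radial glia-like cells, with a median at the floor (1.90 TPM) and pool means of 8.12 and 17.5 TPM. Its excitatory neuron-like cells had a median of 38.8 TPM, a maximum of 152 TPM and pool means of 46.0 and 47.0 TPM. The log2 difference between excitatory neuron-like and radial glia-like cells was 2.22 ± 0.57 (SE), 2.24 in pool 1 and 2.201 in pool 2. Newborn neuron-like cells lay between in mean log2 level. Their pool means were 25.5 and 17.3 TPM, of which that of pool 2 was not above the 17.5 TPM of radial glia-like cells. Between excitatory neuron-like and newborn neuron-like cells the log2 difference was 1.07 ± 0.57. With each cell assigned to the class holding the largest share of its markers, this difference was 0.096, and that between excitatory neuron-like and radial glia-like cells was 0.65. Interneuron-like cells had the highest pool means, 62.5 and 56.0 TPM. Elavl3 also shares exonic positions with Gm49318 on the same strand, and reads of the pair could not be told apart there.

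Elavl4 had its highest mean log2 level in newborn neuron-like cells. Its signal exceeded the floor of the cell in 8 of 16 radial glia-like cells, 15 of 16 mixed progenitors, 38 of 40 newborn neuron-like cells (95%, interval 83.1 to 99.4%), 65 of 96 excitatory neuron-like cells (67.7%, interval 57.4 to 76.9%) and 23 of 27 interneuron-like cells. The median was at the floor in radial glia-like cells (1.90 TPM), 116 TPM in mixed progenitors, 149 TPM in newborn neuron-like cells, 48.8 TPM in excitatory neuron-like cells and 171 TPM in interneuron-like cells. Pool means were 179 and 216 TPM in newborn neuron-like cells, against 70.7 and 67.7 TPM in excitatory neuron-like cells. In radial glia-like cells they were 49.1 and 48.1 TPM, and the pool means of these 3 classes did not overlap. Interneuron-like cells, with pool means of 166 and 185 TPM, and mixed progenitors, with 183 and 182 TPM, overlapped the newborn neuron-like cells on the TPM scale but not in mean log2 level. The log2 difference between newborn neuron-like and radial glia-like cells was 3.37 ± 0.53 (SE), and between excitatory neuron-like and newborn neuron-like cells -2.25 ± 0.53, with -2.26 in pool 1 and -2.23 in pool 2. The first was 1.64 with classes by the largest share of markers, and the second was -1.49 with log2 of the mean TPM. Between these 2 neuronal classes as named here, Elavl3 was thus higher in the excitatory neuron-like class and Elavl4 in the newborn neuron-like class in both pools. With classes by the largest share of markers the Elavl3 part of that order nearly vanished. Within letter B of pool 2, Elavl4 had a mean log2 level of 6.58 in 7 excitatory neuron-like and 6.35 in 4 newborn neuron-like cells. The other combinations of pool and letter kept the Elavl4 order. Over all genes, limma called 0 of 10690 between these 2 classes, and 413 had an unadjusted p below 0.05.

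Elavl2 exceeded the floor of the cell in 6 of 16 radial glia-like cells, 14 of 16 mixed progenitors, 26 of 40 newborn neuron-like, 58 of 96 excitatory neuron-like and 16 of 27 interneuron-like cells. Radial glia-like cells ranged from 1.40 to 73.4 TPM, and their pool means of 5.70 and 14.7 TPM were the lowest of any class. Mixed progenitors, at 51.7 and 131 TPM, had the highest pool mean in pool 2, and interneuron-like cells, at 103.4 and 51.0 TPM, in pool 1, so these classes overlapped. Between excitatory neuron-like and radial glia-like cells the log2 difference was 1.46 ± 0.72 (SE), 1.97 in pool 1 and 0.94 in pool 2. This value depends on how cells are named: with each cell assigned to the class holding the largest share of its markers, it was -0.06. Within the interneuron-like class, Elavl2 was above the floor in 10 of 12 cells of one cluster (mean 132 TPM) and in 6 of 15 of the other (mean 42.1 TPM), a difference between clusters that was not tested.

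**Figure D2:**
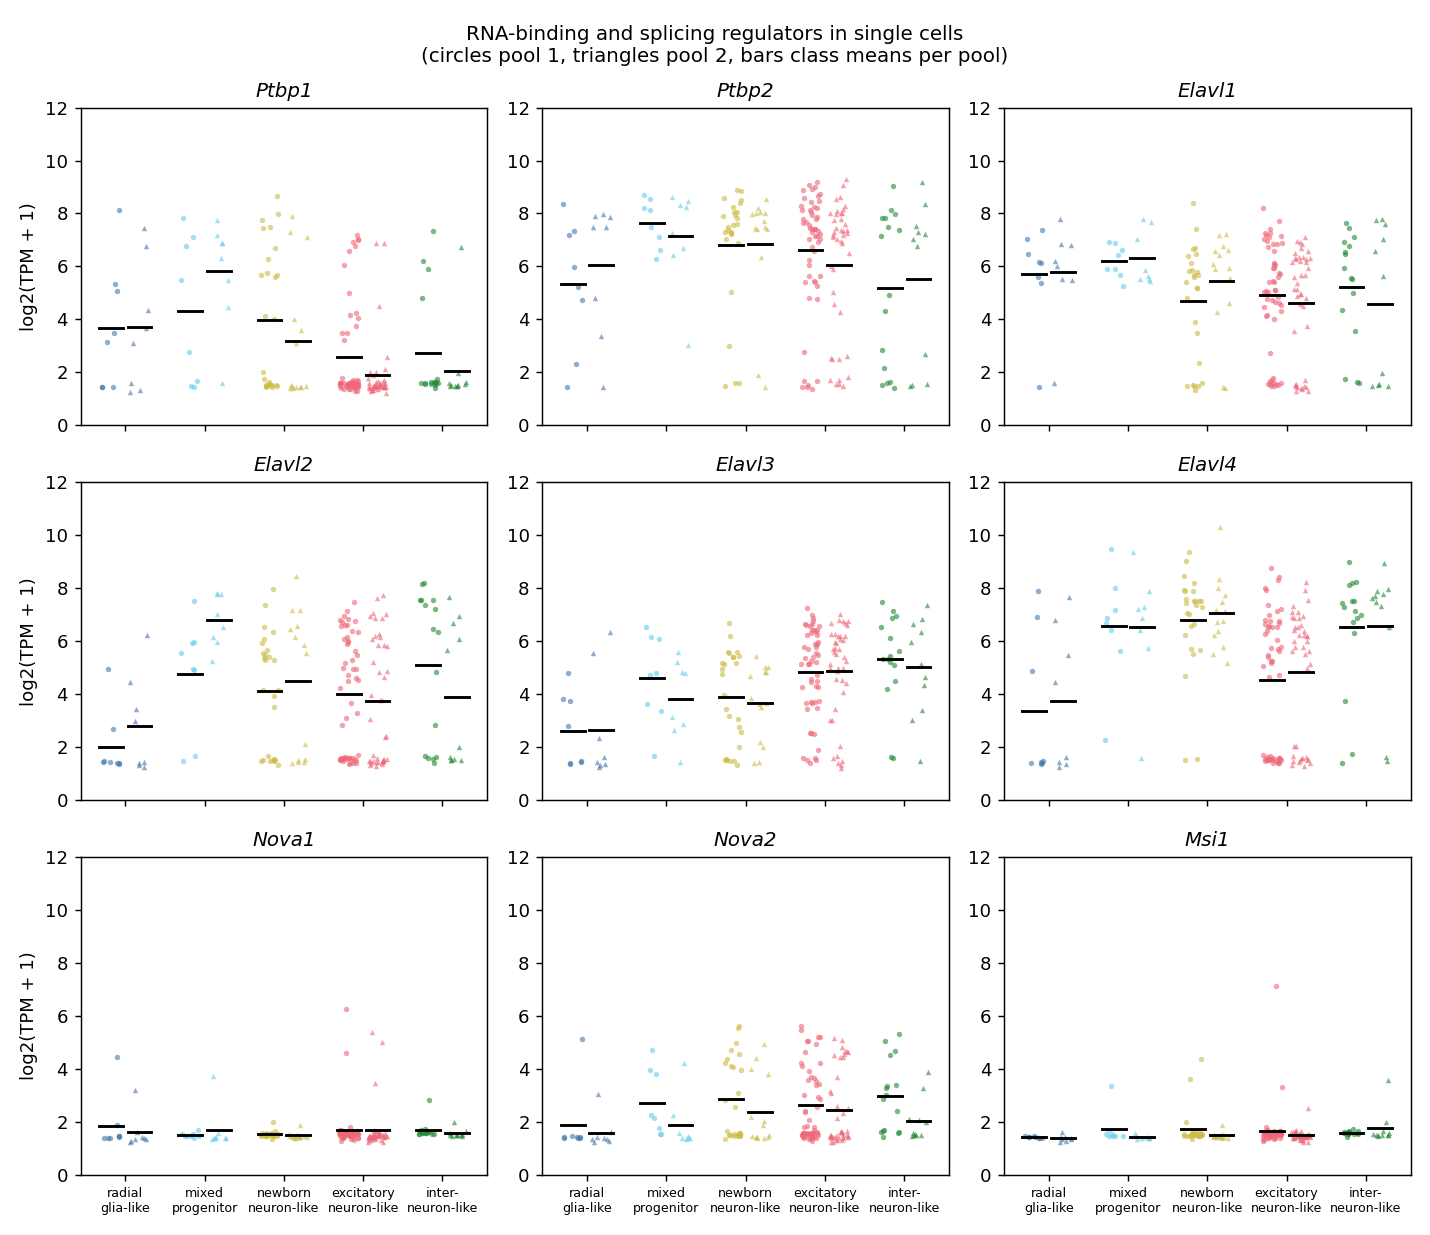
Level of each gene as log2(TPM + 1) in every cell of the 5 classes (circles pool 1, triangles pool 2, bars the mean of each class and pool). Elavl4 has its highest mean in newborn neuron-like cells. Elavl3 has its higher means in excitatory neuron-like and interneuron-like cells, and Nova1 and Msi1 lie at the floor in nearly all cells.

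Counted per cell, the 3 neuronal Elavl genes were often present together outside the radial glia-like class. In the radial glia-like class, 5 of 16 cells had none of the 3 genes above the floor and 3 of 16 had all 3. In mixed progenitors all 3 were above the floor in 12 of 16 cells, in newborn neuron-like cells in 20 of 40, in excitatory neuron-like cells in 36 of 96 and in interneuron-like cells in 11 of 27. A cell with none was absent from the mixed progenitor, newborn neuron-like and interneuron-like classes and was found once among the 96 excitatory neuron-like cells. Elavl4 was above the floor without Elavl3 in 7 newborn neuron-like cells, and Elavl3 without Elavl4 in 1. Among excitatory neuron-like cells the counts were 6 and 29. Over all 221 cells the Pearson r of log2 levels was -0.04 for Elavl3 and Elavl4, 0.05 for Elavl2 and Elavl3 and 0.09 for Elavl2 and Elavl4. The value for Elavl2 and Elavl3 had opposite signs in the pools, 0.19 in pool 1 and -0.10 in pool 2.

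Some radial glia-like cells also held neuronal transcripts. In the 7 radial glia-like cells whose Neurod6 level was at least 100 TPM, Elavl2, Elavl3 and Elavl4 were each above the floor in 4. In the other 9 they were above the floor in 2, 3 and 4 cells, a difference of few cells that was not tested. Without those 7 cells the log2 difference between excitatory neuron-like and radial glia-like cells was 2.10 for Elavl2, 2.58 for Elavl3, 1.97 for Elavl4 and -2.02 for Ptbp1, each farther from 0 than with them. Over the 13 excitatory neuron markers, the summed level ran from 25.1 to 1923 TPM in radial glia-like cells (median 279) and from 607 to 7651 TPM in excitatory neuron-like cells (median 2576), with Bcl11b and Slc17a6 at the floor in every radial glia-like cell. Whether that neuronal signal lies in the cells themselves was not tested.

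**Figure D3:**
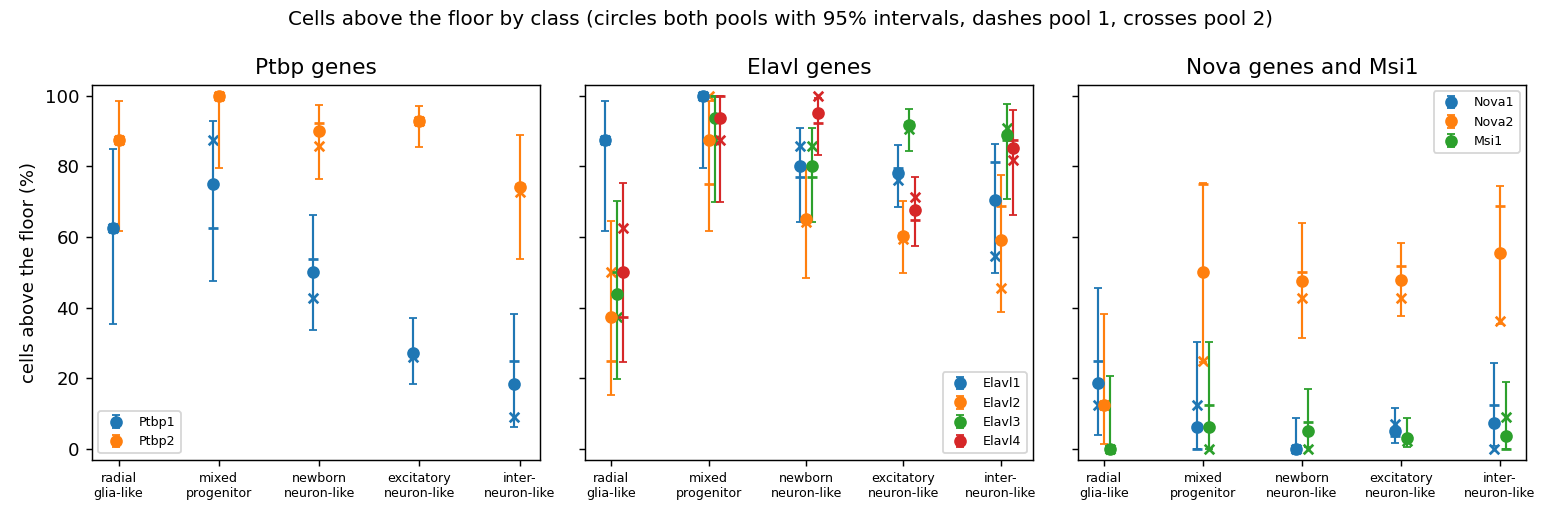
Percent of cells above the floor for each gene and class (circles both pools with 95% exact binomial intervals, dashes pool 1, crosses pool 2). The Ptbp1 share is 62.5% in radial glia-like and 27.1% in excitatory neuron-like cells, and Elavl4 reaches 95% in newborn neuron-like cells.

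Nova2 was the commoner Nova gene, above the floor in 104 of 221 cells against 12 for Nova1. Nova2 exceeded the floor of the cell in 2 of 16 radial glia-like, 8 of 16 mixed progenitor, 19 of 40 newborn neuron-like, 46 of 96 excitatory neuron-like and 15 of 27 interneuron-like cells. Its levels were low, with a maximum of 48.7 TPM and medians from 1.65 to 3.15 TPM over the 5 classes. The pool means were 5.66 and 2.30 TPM in radial glia-like cells and 9.31 and 8.14 TPM in excitatory neuron-like cells. The log2 difference was 0.81 ± 0.45 (SE), and the neighbouring classes newborn neuron-like, excitatory neuron-like and interneuron-like overlapped over the pools. With 10 TPM as the limit in place of the floor, 27 excitatory neuron-like cells remained. Nova1 exceeded the floor of the cell in 3 of 16 radial glia-like cells, 1 mixed progenitor, 5 of 96 excitatory neuron-like and 2 of 27 interneuron-like cells. Signal was present in 0 of 40 newborn neuron-like cells, which by the limit of 3 cells allows a share of up to 7.50%. Nova2 shares exonic positions with Gm26821 on the opposite strand and Nova1 with Gm33869 on the same strand.

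Msi1, known as a marker of neural stem cells, was above the floor in 9 of 221 cells. None of these was radial glia-like: 0 of 16 cells allows a share of up to 18.8% by the same limit. The 9 cells were 1 mixed progenitor, 2 newborn neuron-like, 3 excitatory neuron-like, 1 interneuron-like and 2 unnamed, and 1 excitatory neuron-like cell held the maximum of 138 TPM. In the same radial glia-like cells Sox2 was above the floor in 11 of 16 and Pax6 in 12 of 16. The Musashi comparison from progenitor to neuron that the rule names therefore could not be made at this detection, and Msi1 failed the minimum of 10 cells for the tests below. A value at the floor does not show that the mRNA was absent.

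The comparison of interneuron-like with excitatory neuron-like cells was not named by the rule and was tested. In limma, fitted to the mean log2(TPM + 1) of each class and pool over 10690 genes, 44 genes (0.412%) were called, the threshold being an adjusted p below 0.05 with an absolute log2 difference of 1 or more. None of the 8 members tested was called. An unadjusted p below 0.05 was found for 705 of the 10690 genes and for 1 of the 8 members. That member was Elavl4, with pool means of 166 and 185 TPM in interneuron-like cells against 70.7 and 67.7 TPM in excitatory neuron-like cells. Its log2 difference was 1.87 ± 0.53 (SE), 1.98 in pool 1 and 1.76 in pool 2, at an adjusted p of 0.254. With profiles weighted by their number of cells Elavl4 was called (adjusted p = 0.0379, in limma), and over all alternatives its adjusted p ranged from 0.0379 to 0.9996. Ptbp2 differed by -0.98 ± 0.53 and Elavl2 by 0.63 ± 0.72, and the other 5 members by between -0.06 and 0.32. The 2 pools were also compared, with class as a factor. In limma 1 of 10690 genes was called (0.00935%), and none of the 8 members was called. None of these members had an unadjusted p below 0.05, against 650 of all genes. Each side holds 1 pool, and its 5 class profiles were the units although they share animals. These p-values therefore do not measure the spread between pools. Member differences between pools ran from -0.54 (Nova2) to 0.35 (Elavl2) on the log2 scale.

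Other RNA-binding proteins and reported RNA targets of the members were followed in 5 lists of 70 genes, of which 64 could be tested. From the radial glia-like to the excitatory neuron-like class, 2.25% of all 10690 genes were called higher and 4.67% lower in the excitatory neuron-like class, with a median log2 difference of 0.06. Of the 64 list genes, 5 were called higher and 2 lower. Classes were formed on markers in these same cells, and the limma p-values between classes do not account for that. Only 3 of the 64 were called without the excitatory neuron-like profile of pool 1, and 2 without that of pool 2, where calls over all genes were also fewer (109 and 108 against 739).

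Among 14 neuronal splicing regulators, Rbfox2 alone was called. It recognises GCAUG in pre-mRNA. Its mean log2 level was 2.26 in radial glia-like, 5.77 in excitatory neuron-like and 5.93 in interneuron-like cells, a log2 difference of 3.51 ± 0.69 (SE, adjusted p = 0.00795, limma) between the first pair. The median of the 14 was 1.42, against 0.06 over all genes. An unadjusted p below 0.05 was found for 8 of the 14 and for 2308 of all 10690 genes. Among these 8, Mbnl2 was lower in excitatory neuron-like cells (log2 difference -1.20). Among 8 stem cell and glial RNA-binding proteins, 2 were called, both lower in excitatory neuron-like cells, and the median was -0.33. Qk, the quaking splicing and mRNA-stability factor of glia, fell by 4.37 on the log2 scale (SE 0.62), from a mean log2 level of 7.41 to 3.04 (adjusted p = 0.00116, limma). Zfp36l1, which destabilises AU-rich mRNAs, fell by 3.76 (SE 0.54), from 5.46 to 1.70 (adjusted p = 0.00133, limma). None of 12 mRNA transport and translation factors and none of 19 general splicing factors was called in limma, with medians of 0.26 and 0.04 and 1 unadjusted p below 0.05 in each list.

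Of the 11 tested transcripts reported as RNA targets of the members, 4 were called higher in excitatory neuron-like cells and none lower, and their median was 0.56. Dab1, an adaptor of Reelin signalling and a Nova target, rose by 3.49 ± 0.67 (SE), from a mean log2 level of 5.70 to 9.19 (adjusted p = 0.00698, limma). Gap43, a growth cone protein whose mRNA Elavl4 binds, rose by 3.36 ± 0.62, from 6.01 to 9.37 (adjusted p = 0.0057, limma). Dcx, a microtubule-binding protein of migrating neurons, rose by 3.18 ± 0.55, from 4.12 to 7.30 (adjusted p = 0.00384, limma). The kinesin Kif5c, the fourth, rose by 2.46 ± 0.57 (adjusted p = 0.0177, limma). All 4 genes are also generally known from differentiating neurons. Gene-level TPM gives the amount of mRNA and not the use of exons. Whether the members act on these transcripts in these cells was not tested.

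In the comparison of interneuron-like with excitatory neuron-like cells, 1 of the 64 list genes was called. Dab1 was lower in interneuron-like cells by a log2 difference of -4.002 ± 0.67 (SE, adjusted p = 0.0144, limma), at a mean log2 level of 5.19 there. No list gene was called in this comparison when the interneuron-like or the excitatory neuron-like profile of either pool was left out, where 0 to 42 genes were called in all. Rbfox1, Khdrbs2 and Khdrbs3 were not called, with log2 differences of -2.49 ± 0.79, -1.82 ± 0.74 and -2.84 ± 0.89. They are singled out after their values were seen, as the 3 of 14 neuronal splicing regulators with an unadjusted p below 0.05. Over all 10690 genes, 705 had such a p.

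**Figure D4:**
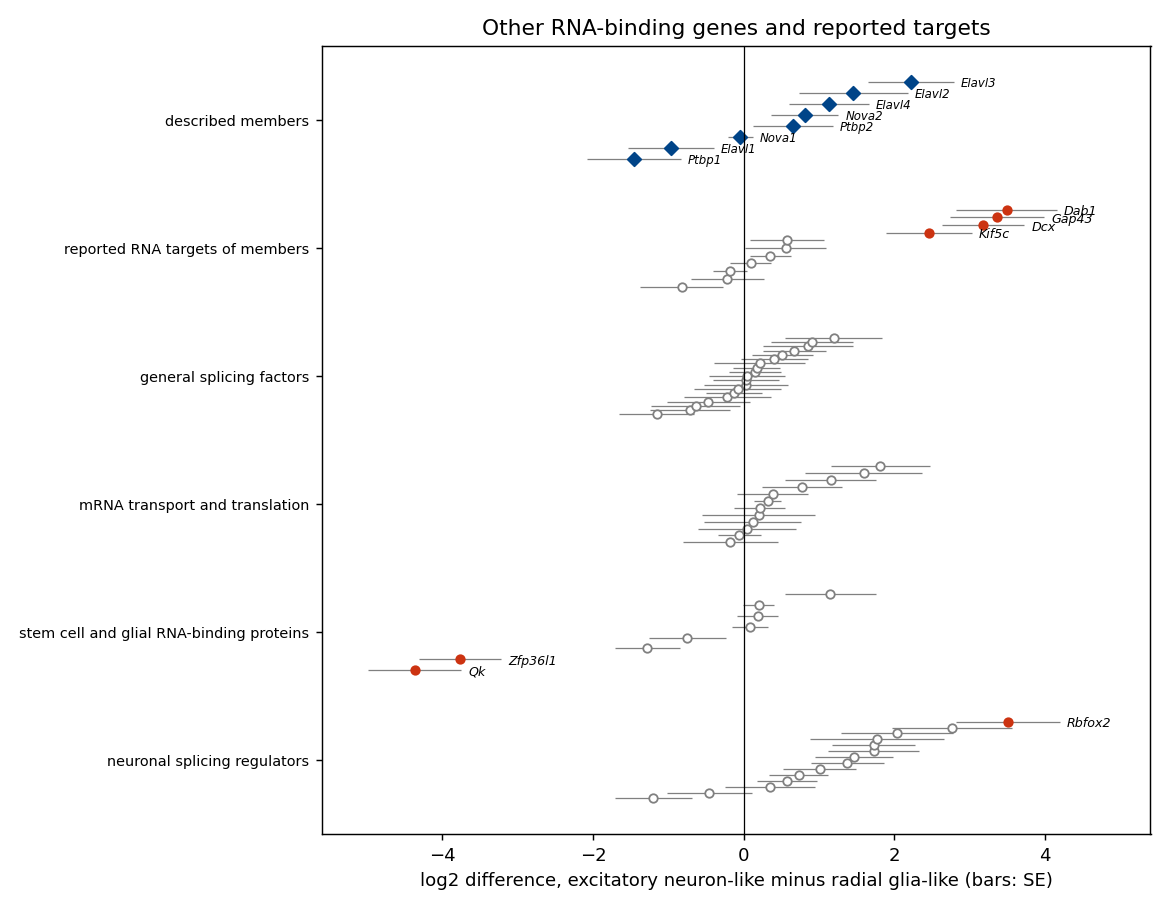
Log2 difference between excitatory neuron-like and radial glia-like cells (bars, SE) for the members (diamonds, description only) and for the 5 lists, with called genes filled and named. Qk and Zfp36l1 lie at -4.37 and -3.76, and Rbfox2, Dab1, Gap43, Dcx and Kif5c between 2.46 and 3.51.

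For each member above the floor in at least 20 cells, the 3 genes most like it were taken by Pearson r of log2(TPM + 1) over the 221 cells, among 9311 genes. These are descriptions, since cells share libraries, pools and gene detection. Ptbp1 was most like Rnd3 (r = 0.40, with 0.31 in pool 1 and 0.52 in pool 2), Tcf19 (0.36) and the radial glia marker Pax6 (0.36). Elavl4 was most like H3f3b (0.33), Eomes (0.33, with 0.33 in pool 1 and 0.34 in pool 2) and Rnd2 (0.31). Elavl3 was most like Shank1 (0.36), Basp1 (0.35) and Mapt (0.35), genes of synapse, growth cone and axon. Ptbp2 was nearest to Ypel5 (0.33), Eif4g1 (0.31) and Klhdc2 (0.31), and Elavl1 to X2900010M23Rik (0.30), Odc1 (0.27) and Rps2 (0.27). Elavl2 was nearest to D10Wsu52e, Hpca and Pafah1b2, at 0.28 to 0.29, and Nova2 to Hecw1, X2310028H24Rik and Agk, at 0.28 to 0.29. Members were left out of this ranking, so none could be named as nearest to another. No coefficient in the ranking exceeded 0.40.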

How the data were processed

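Per the labels, single cells of E18.5 mouse medial neocortex were captured from 2 pools. The deposited TPM values were made by the authors, and the submitters' processing notes name TopHat2 2.0.14, Bowtie2 2.2.6, Cufflinks 2.2.1 and mm10. TPM add up to 1000000 in every cell, so levels are relative. Values below each cell's floor are unknown, which compresses differences of low genes. Both deposited tables held the same 5136924 values.

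From TPM, log2(TPM + 1) was taken (pseudocount 1), so fold changes of low genes are understated. Cells were clustered (Ward linkage, 10 principal components, 63 of 91 matched marker genes, each with signal in 5 or more cells; 10 clusters). A cluster took the class with the highest marker share, by a margin of 15 percentage points, with 3 markers in 50% of at least 5 cells. This naming rule and the mixed progenitor name were set after the clusters were seen. Means per class and pool (at least 4 cells) were fitted with limma 3.58.1 in R 4.3.3 (trend and robust, two-sided, Benjamini-Hochberg over all 10690 genes, each with signal in 10 or more cells, markers left out). The threshold for a call was an adjusted p below 0.05 with an absolute log2 difference of 1 or more. Cells of a pool are not replicates. Pools are separate groups of animals, and all classes of a pool share its animals, so the pool number pairs the classes. Deviations of pool 2 from class means correlated at -0.02 to 0.05 over 10 class pairs. On simulated profiles of 10690 genes the fit was checked with known differences. These were larger in size than any member difference in the fit reported above, so recovery of smaller ones was not checked.

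Members and lists were chosen with earlier results of these data known. Named genes were all members, the 3 genes most like each member, and called list genes, up to 3 per direction and list by size, with others named where a count is 5 or fewer. Of 71 list symbols 70 were matched. Alternatives were the pseudocount, scaling, filter, weights, class definition, unit, pool block and left-out profiles or cells. Clustering without red blood cell markers was added after the data were seen, as was a minimum of 3 cells per profile where Neurod6-high radial glia-like cells were left out.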

Additional observations from a re-analysis of the deposited data

How the results depend on the processing

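With the replicate block (pool as a factor), 8 list genes were called from the radial glia-like to the excitatory neuron-like class, against 7 without it, and 2 between interneuron-like and excitatory neuron-like cells, against 1. Members were described without calls in the first comparison, and none was called under the block in the second. The first count, 7, was 4 with 12 clusters, 3 with classes by the largest share of markers and 11 after leaving out radial glia-like cells whose Neurod6 was at least 100 TPM. It ranged from 2 to 10 when each class and pool was left out in turn. Without the excitatory neuron-like profile of pool 1 it was 3, and without that of pool 2 it was 2, as calls over all genes went from 739 to 109 and 108. The second count, 1, was 0 with log2 of the mean TPM, 2 with 12 clusters, 3 with classes by the largest share of markers and 4 with profiles weighted by cells, and 0 to 0 when each profile was left out. With 1 profile left in a class, that profile is assumed to vary like the others. The member count in that comparison was 1 in place of 0 with profiles weighted by cells. Elavl2 between excitatory neuron-like and radial glia-like cells turned from 1.46 to -0.0648 with classes by the largest share of markers, which put 36 cells in the radial glia-like class. The cause of these changes was not tested. For Elavl3, Elavl4, Nova2, Ptbp1 and Elavl1 the sign of that difference was the same under all 17 alternatives, with ranges of 0.65 to 2.58, 0.09 to 1.97, 0.35 to 1.05, -2.02 to -0.83 and -1.62 to -0.51. Ptbp2 kept its sign in 15 of the 17 (-0.195 to 1.01) and Nova1 in 13 (-0.245 to 0.31). Not all 17 could change a value. With 8 clusters the named classes had the same cell and detection counts as reported. The pool block leaves class differences as they are, since every class had both pools. Clustering without red blood cell markers, an alternative chosen after seeing the data, gave no mixed progenitor class and 7 excitatory neuron-like cells, all from pool 1, so the comparisons with excitatory neuron-like cells could not be fitted. It left the pool comparison at 0 members, and the Elavl4 difference between newborn neuron-like and radial glia-like cells at 3.13, which over all 18 alternatives ran from 1.64 to 4.22 (3.37 as reported). The Elavl3 difference between excitatory and newborn neuron-like cells ran from 0.096 to 1.17. With unknown read depth, values at the floor limit what can be said of Nova1, Nova2 and Msi1.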

Other observations

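In the 26 cells that took no class name, Ptbp2 was above the floor in 25, Elavl3 in 25, Elavl4 in 24, Elavl1 in 21, Elavl2 in 19, Nova2 in 14, Ptbp1 in 10, Msi1 in 2 and Nova1 in 1. The largest unnamed cluster held 17 cells and was led by globin genes. Over the 26 unnamed cells the summed level of the 4 red blood cell markers ran from 6.97 to 8013 TPM, with a median of 1212 TPM. In this cluster Ptbp2 was above the floor in 17 of 17 cells, with a median of 140 TPM, and Elavl3 in 16 of 17, with a median of 47.9 TPM. Elavl4 was above the floor in 15 of 17, with a median of 91.8 TPM. A second unnamed cluster of 8 cells, all from pool 1, had Elavl4 and Elavl3 above the floor in 8 of 8 and Ptbp1 in 4 of 8.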
